A study of Drosophila melanogaster with 2 samples.

Results

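The genes of messenger RNA (mRNA) decay were examined in homozygous mbf1 mutant Drosophila melanogaster and in yw animals, the control strain with the yellow body and white eye mutations. The set was 30 genes named by their role: the 5′ to 3′ exonuclease gene pcm (Pacman) and the genes of decapping, deadenylation, nonsense-mediated decay, no-go decay, the exosome and microRNA silencing. A probe set annotated with 1 gene symbol was held for 22 of them, out of 10843 genes on the array, and these 22 genes had 27 probe sets. The other 8, AGO1, AGO2, Dcp1, Dcp2, Not1, Smg5, nonC and tral, were not analysed here.

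RNA of each genotype was read by 1 Affymetrix DrosGenome1 array, 2 arrays in all. Without replicates the values have no error between samples, and a difference describes these 2 arrays. Both groups are labelled as embryos, incubated for 16 h after egg laying at 25 °C. The labels name neither the mbf1 allele nor how many embryos were pooled, and they do not say whether the mbf1 mutants share the yw background. Testis and accessory gland genes, markers of adult males, were bright on both arrays: 10 of 11 testis genes were above the floor on the mbf1 array and 8 on the yw array, with summed signals of 11398 and 12635, and 9 of 9 accessory gland genes were above it on both, with summed signals of 8205 on the mbf1 array and 9351 on the yw array. The log2 ratios of the testis genes, mbf1 over yw, had a median of -0.02, with 4 positive and 6 negative. Those of the accessory gland genes had a median of -0.13, with 4 positive and 5 negative. Of 4 neuronal genes nSyb and nrv2 were above the floor on both arrays, and elav and brp under it on both. Muscle genes had summed signals of 3946 on the mbf1 array and 5566 on the yw array, with all 3 measured ratios negative and a median of -0.46. The part of these cell types in the values below was not tested.

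Most eukaryotic mRNAs are first shortened at the poly(A) tail, which the CCR4-NOT complex removes. The cap is then cut off by the decapping enzyme with its activators, and Pacman, the fly Xrn1, degrades the body from the 5′ end, while the exosome degrades RNA from the 3′ end. Surveillance pathways feed faulty mRNAs into the same enzymes: nonsense-mediated decay acts where translation stops too early, and no-go decay where ribosomes stall. MBF1, multiprotein bridging factor 1, is known as a transcriptional coactivator, and in Drosophila it has also been reported to protect the mRNA of the Polycomb gene E(z) from degradation by Pacman. The comparison asks which transcripts differ when MBF1 is missing. The arrays report the transcripts of the decay enzymes and not the activity of the enzymes.

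Signals are given after scaling, which divided the values of the mbf1 array by 1.47 so that the bulk of bright genes had a log2 ratio of 0. A signal of 17.7, the 40th percentile of both arrays pooled, served as the floor, and lower values were raised to it for the ratios. A gene above the floor on at least 1 array was counted as measured. Ratios are on the log2 scale, mbf1 over yw. Brightness also depends on the probes, so only a gene's own 2 values are set against each other.

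The 17 decay genes that could be read had ratios spread much like those of all measured genes. Of the 22 genes 17 were measured, 15 of them above the floor on both arrays, and 5 were under it on both. On the mbf1 array 0 of the 17 were higher by 2-fold or more and 0 lower by 2-fold or more, where 1.51% and 1.63% of all 7688 measured genes were. At least 1.5-fold higher was 1 gene, me31B, and at least 1.5-fold lower were 0, against 7.45% and 7.71% of all measured genes. At a set of this size these counts are near those shares and single out nothing about the decay genes. The ratios ran from -0.51 for pcm to 0.62 for me31B, 10 of them positive and 7 negative. Their median was 0.08, beside a median of 0.00 over all measured genes, and 11 of the 17 lay within the middle 50% of all genes, between -0.25 and 0.25. In whole animals fewer cells of a type and less RNA per cell cannot be told apart.

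**Figure D1:**
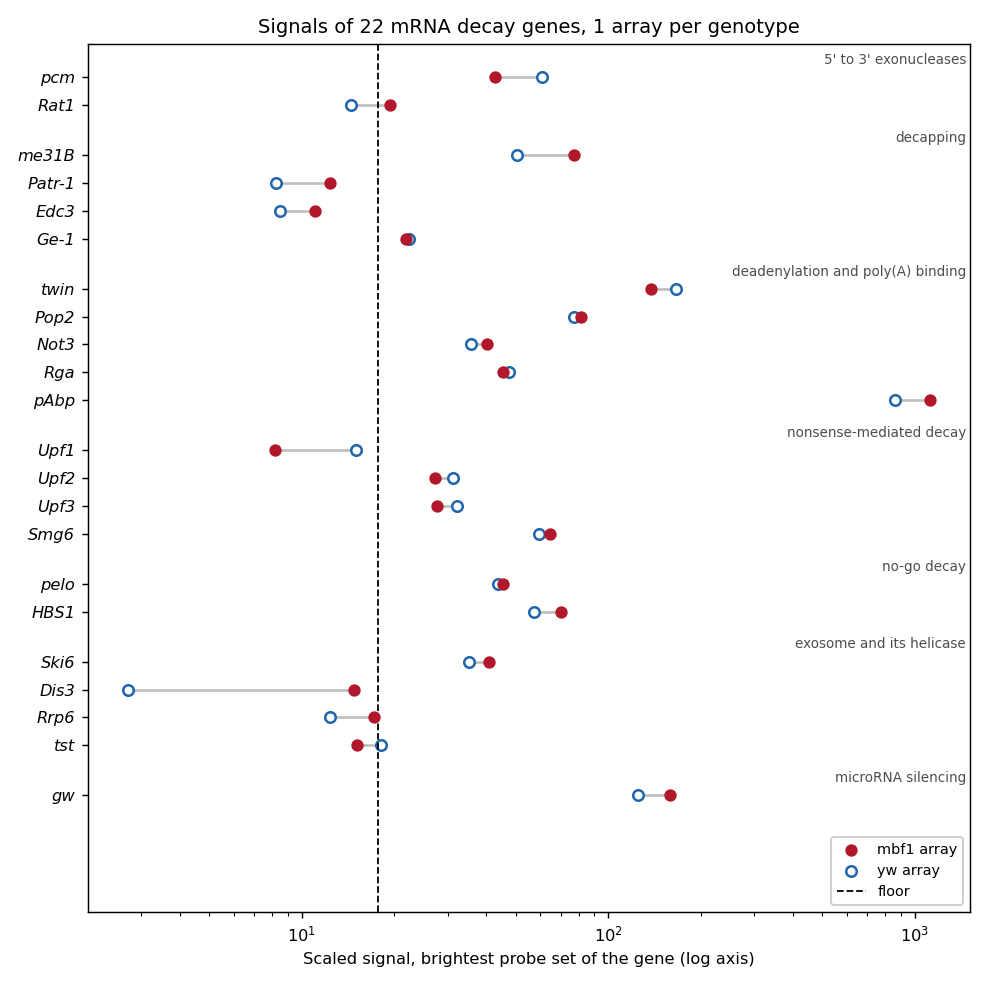
Scaled signals (log axis) of the 22 mRNA decay genes on the mbf1 array (filled) and the yw array (open), ordered by role, with the floor of 17.7 as a dashed line. Each point is 1 array, and the points of most genes above the floor lie close together.

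**Figure D2:**
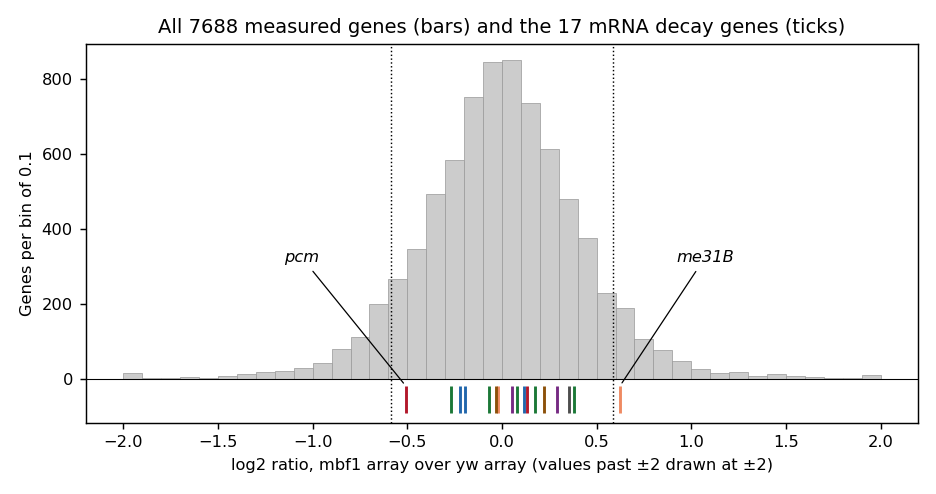
Log2 ratios of all 7688 measured genes (bars, number of genes per bin) with the 17 measured mRNA decay genes as coloured ticks below them; dotted lines mark 1.5-fold. The ticks run from pcm at -0.51 to me31B at 0.62, and 11 of them lie between -0.25 and 0.25.

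The exonuclease gene pcm had the lowest ratio of the 17. Its signal was 42.7 on the mbf1 array and 60.8 on the yw array, so it was 1.42-fold lower, short of 1.5-fold, and 10.4% of all measured genes had a lower ratio. Among the 500 genes of nearest signal the ratios had a robust SD of 0.37, so the pcm ratio was 1.36 times that spread. The deposited signals of pcm, before scaling, were 62.6 on the mbf1 array and 60.8 on the yw array, a ratio of 0.04, where the median ratio of all genes was 0.50. The lower value of pcm is therefore relative to the bulk of genes on the mbf1 array. The 3 muscle genes had ratios of similar size, and their part in the pcm ratio was not tested. Only 1 probe set reads pcm, so no second reading of this ratio exists here. Rat1, the nuclear relative of Pacman known as Xrn2, lay at the floor, with signals of 19.4 on the mbf1 array and 14.5 on the yw array, at least 1.09-fold higher. The transcript of mbf1 itself had signals of 22.1 on the mbf1 array and 478.7 on the yw array. E(z) had 23.1 on the mbf1 array and 21.2 on the yw array, a ratio of 0.13, with both values close to the floor.

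Among the decapping genes me31B was the higher one. It encodes an RNA helicase of the DDX6 family that represses translation and promotes decapping, and it is known for its abundance in the germ line and the early embryo. Its signal was 77.4 on the mbf1 array and 50.3 on the yw array, 1.54-fold higher, just past 1.5-fold, and 93.7% of measured genes had a lower ratio. The ratio was 1.63 times the robust SD of 0.38 among genes of similar signal, and it rested on 1 probe set. Maternal and germ line markers, which me31B accompanies in eggs, had a median ratio of 0.29 over 7 measured of 10 genes, with summed signals of 399.9 on the mbf1 array and 330.6 on the yw array; osk, vas and bcd were under the floor on both. Of the 7 maternal and germ line ratios 6 were positive and 1 negative. Early embryo markers had a median ratio of 0.23 over 5 measured of 8 genes, 3 positive and 2 negative. Adult female genes had a median of -0.18 over 4 measured of 5, with 2 positive and 2 negative. The part of these lists in the me31B ratio was not tested. Ge-1, a scaffold protein that holds decapping factors together, had signals of 21.96 on the mbf1 array and 22.3 on the yw array, 1.02-fold lower. Patr-1, the fly Pat1 that links deadenylation to decapping, was under the floor with 12.3 on the mbf1 array and 8.23 on the yw array. Edc3, an activator of decapping, was under it with 11.02 on the mbf1 array and 8.51 on the yw array. Of the 7 decapping genes named, a ratio could thus be given for me31B and Ge-1 only.

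All 5 deadenylation and tail-binding genes with a probe set passed the floor on both arrays, and their ratios ran from -0.27 to 0.38. The CCR4-NOT complex carries a pair of catalytic subunits, encoded by twin (the fly Ccr4) and Pop2 (Caf1). The signal of twin was 138 on the mbf1 array and 166.6 on the yw array, 1.21-fold lower, and that of Pop2 was 81.6 on the mbf1 array and 77.1 on the yw array, 1.06-fold higher. The catalytic subunits thus lay on opposite sides of 0, each by less than the spread of genes of similar signal. Of the other subunits, Not3 had signals of 40.3 on the mbf1 array and 35.6 on the yw array, and Rga, the fly Not2, had 45.3 on the mbf1 array and 47.6 on the yw array, ratios of 0.18 and -0.07. The second probe sets of twin and Pop2 were under the floor on both arrays and gave no ratio.

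The gene of the cytoplasmic poly(A)-binding protein, pAbp, was read by 2 probe sets, both far above the floor. This protein coats the poly(A) tail and links it to the cap complex. Its signal was 1124 on the mbf1 array and 864.7 on the yw array, 1.30-fold higher. Its second probe set had 308.2 on the mbf1 array and 245.9 on the yw array, and the ratios of the 2 probe sets, 0.38 and 0.33, differed by little. Both readings come from the same 2 RNA preparations, so their closeness leaves out any error between arrays or samples.

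Genes of nonsense-mediated decay gave 3 ratios, from -0.22 to 0.12. Upf2 and Upf3 encode the bridging factors that bring the helicase Upf1 to exon junctions or terminating ribosomes in other animals. Upf2 had signals of 27.2 on the mbf1 array and 31.1 on the yw array, and Upf3 had 27.5 on the mbf1 array and 32.1 on the yw array, ratios of -0.20 and -0.22. Smg6, the endonuclease that cuts the target mRNA, had 64.4 on the mbf1 array and 59.4 on the yw array, a ratio of 0.12. All 3 ratios lay in the middle 50% of measured genes. Upf1 itself was under the floor, with 8.15 on the mbf1 array and 15.002 on the yw array. No-go decay was covered by both of its genes, pelo and HBS1, whose products together release stalled ribosomes. The signal of pelo was 45.2 on the mbf1 array and 43.7 on the yw array, and that of HBS1 was 70.3 on the mbf1 array and 57.4 on the yw array, a ratio of 0.29. Both ratios were positive, and neither passed 1.5-fold.

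In the 3′ to 5′ branch 2 of 4 genes were measured. The exosome core subunit gene Ski6 (Rrp41) had signals of 40.9 on the mbf1 array and 35.03 on the yw array, 1.17-fold higher. The genes of both exosome nucleases were under the floor: Dis3 had 14.8 on the mbf1 array and 2.72 on the yw array, and Rrp6 had 17.2 on the mbf1 array and 12.3 on the yw array. No fold is given for them at this floor. The helicase gene tst, the fly Ski2 that threads RNA into the cytoplasmic exosome, had 15.1 on the mbf1 array and 18.1 on the yw array, at least 1.02-fold lower. With a floor of 8.89, the 25th percentile, Dis3 became at least 1.67-fold higher and Upf1 at least 1.69-fold lower. The Dis3 signal on the yw array and the Upf1 signal on the mbf1 array were under this floor too. These folds are therefore lower bounds, and their full size is not known. Of the microRNA silencing genes gw was read. It encodes GW182, which binds Argonaute and recruits the deadenylases. Its signal was 159.2 on the mbf1 array and 124.7 on the yw array, and its second probe set had 45.2 on the mbf1 array and 37.3 on the yw array. The ratios of 0.35 and 0.28 were both positive, and the first was as large as the spread of 0.35 among genes of similar signal. Beside pcm and me31B, gw was the only one of the 17 to reach that spread, and pAbp lay just under it.

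**Figure D3:**
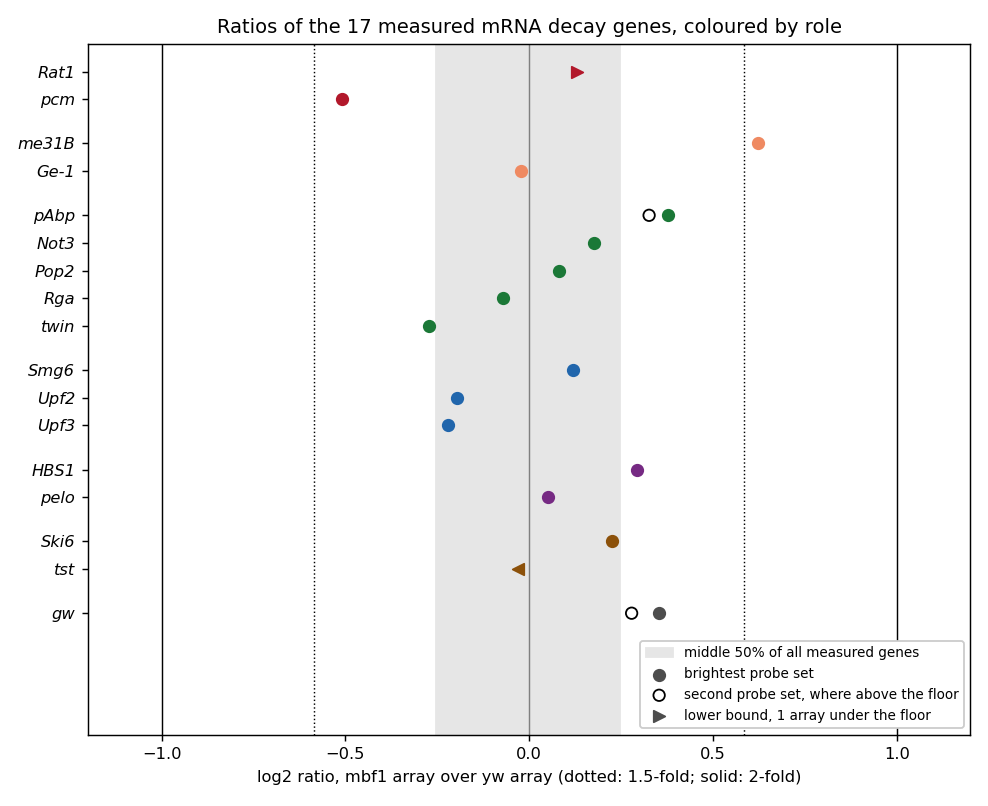
Log2 ratio (mbf1 over yw) for the 17 measured mRNA decay genes, coloured by role; open circles are second probe sets above the floor, triangles are lower bounds, and the grey band is the middle 50% of all measured genes. Only me31B at 0.62 lies past the dotted 1.5-fold line, and the second probe sets of pAbp and gw lie beside their first.

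The members were spread over the genome. By the Release 6 gene table, the measured genes on the X chromosome were pcm and Upf2, and both had negative ratios. The 1232 measured genes of the X chromosome had a median ratio of -0.03, close to the median of all genes. The other 15 measured members lay on the remaining arms, among them 5 on 2L with me31B, where the median of all genes was 0.02.

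Beyond these genes, 8 further lists of the pathway, of 84 genes, held 66 with a probe set and 49 measured. None of the 49 was at least 1.5-fold higher and 4 were at least 1.5-fold lower, against 7.45% and 7.71% of all measured genes. Their median ratio was -0.02, with 23 positive and 26 negative. The 4 lower genes were cu, eRF3, Nmdmc and Ilp8, of which eRF3 and Nmdmc were at least 2-fold lower. These calls depended on the floor and the scaling. With a floor of 8.89 the counts were 2 higher and 8 lower of 61, where 997 and 940 of all 9272 measured genes were. PAN3, Mtr3, smg and Pabp2 joined the lower genes and Csl4 and simj the higher ones. With scaling on hybridization controls the counts were 5 higher and 2 lower of 51, beside 1214 and 265 of all 7717 measured genes. There cu and Ilp8 had ratios of -0.50 each and eRF3 one of -0.80. With a floor at the 60th percentile Ilp8 had a ratio of -0.24. Without scaling 20 of 50 genes were higher and 1, Nmdmc, was lower, beside 3245 and 112 of all 7896 measured genes.

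The remaining deadenylation genes were mostly on the lower side, 7 of 9, with a median of -0.23, where 49.9% of all measured ratios were positive. Of the 7, only cu and PAN3 passed the spread of genes of similar signal, and only these stayed negative without scaling. The subunits Rcd-1 and Not10 of CCR4-NOT had ratios of -0.22 and -0.26, and Not11 one of 0.14. The gene cu (curled) encodes the fly relative of nocturnin, a protein of the Ccr4 family. It had signals of 103.8 on the mbf1 array and 170.1 on the yw array, 1.64-fold lower. PAN3, the adaptor of the PAN2 deadenylase, was under the floor on the mbf1 array at 10.6 and had 24.7 on the yw array, at least 1.39-fold lower, and 2.33-fold lower with the floor of 8.89.

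The LSm ring and cap list had 3 measured genes of 12, all with positive ratios, led by LSm1, a subunit of the ring that binds shortened tails, at 0.46. Next was the translational repressor gene 4E-T, at least 1.21-fold higher. The further exosome genes had a median of 0.27 over 5 measured of 10. In this list Dis3l2, a cytoplasmic 3′ to 5′ exonuclease, had signals of 26.0 on the mbf1 array and 18.3 on the yw array, a ratio of 0.50, and the exosome cap gene Csl4 was at least 1.26-fold higher, or at least 2.50-fold with the floor of 8.89. Both lists were dim, with median signals close to the floor.

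Exon junction and termination genes had 6 measured of 8. The exon junction gene tsu (Y14) had a ratio of 0.48. The release factors, which read the stop codon as a complex, parted: eRF1 had signals of 248.2 on the mbf1 array and 225.4 on the yw array, while eRF3, the GTPase partner that also contacts Upf1, had 90.2 on the mbf1 array and 182.3 on the yw array, 2.02-fold lower.

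Of 16 small RNA genes 7 were measured, none past 1.5-fold, with the helicase gene Rm62 at 0.44 and r2d2, the partner of Dcr-2, at -0.36. The germ line genes piwi, aub and armi were under the floor on both arrays. Of 16 genes for mRNA-binding regulators 11 were measured, with a median of -0.01. Their largest ratios were those of the CPEB proteins orb, at 0.48, and orb2, at -0.28. Poly(A) synthesis and binding genes had a median of 0.05 over 4 measured of 6, with Paip2, an antagonist of pAbp, at 0.28 and the poly(A) polymerase gene Gld2 at 0.14.

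The last list held mRNAs reported in flies as targets of Pacman or of nonsense-mediated decay. Of its 7 genes 4 were measured, with a median of -0.44. Nmdmc, a folate enzyme of mitochondria whose mRNA has been reported as a Pacman target, had signals of 29.9 on the mbf1 array and 118.4 on the yw array, 3.97-fold lower. Ilp8, a relaxin-like peptide that delays development and is also a reported Pacman target, had 25.7 on the mbf1 array and 42.2 on the yw array, 1.64-fold lower. Both were on the same side as pcm itself. In the same list simj was under the floor on both arrays, with 17.2 on the mbf1 array and 7.11 on the yw array. With the floor of 8.89 simj was at least 1.94-fold higher, on the other side from pcm. Any link between the pcm ratio and the ratios of these reported targets was not tested. Only 5 of the 7 genes had a probe set. The reported targets of nonsense-mediated decay lay near 0, with Gadd45 at 42.3 on the mbf1 array and 47.7 on the yw array and Oda at 881.4 on the mbf1 array and 863.4 on the yw array.

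**Figure D4:**
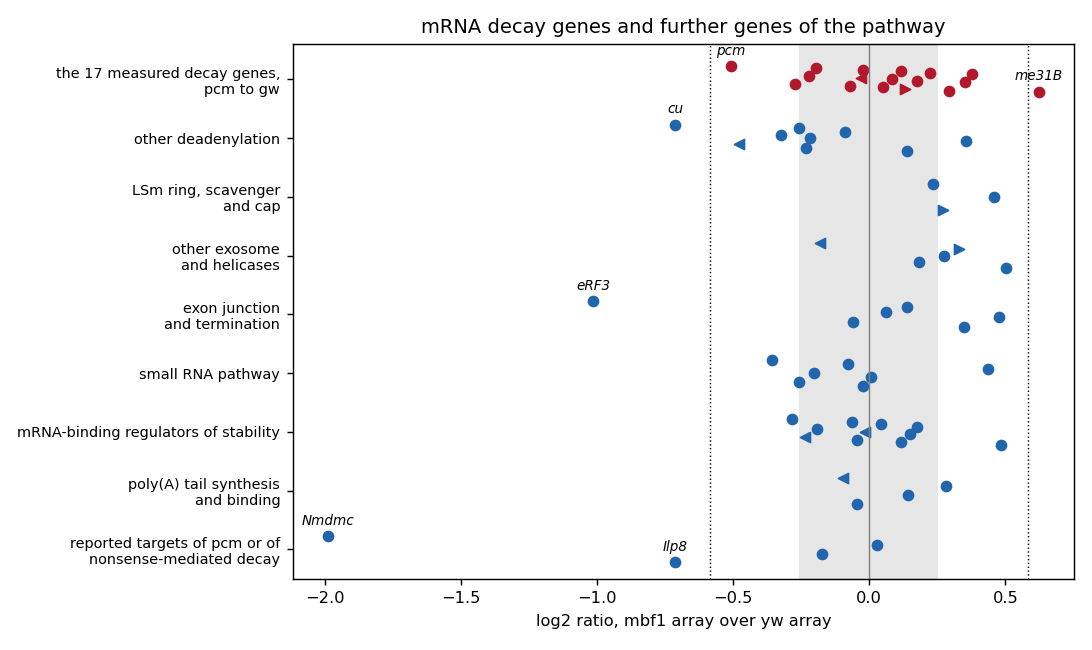
Log2 ratio (mbf1 over yw) for the 17 measured mRNA decay genes (top row, red) and 49 further genes of the pathway in 8 lists (blue); triangles are lower bounds, the grey band is the middle 50% of all measured genes and dotted lines mark 1.5-fold. The labelled genes past the lower line are cu at -0.71, eRF3 at -1.01, Nmdmc at -1.99 and Ilp8 at -0.72.

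The level given to the arrays as a whole decided the direction of some members. With scaling on hybridization controls the median of all genes moved to 0.19 and that of the decay genes to 0.26, and without scaling they were 0.50 and 0.53. In the first case pAbp joined me31B past 1.5-fold, at 0.59, where 1214 of 7717 measured genes were at least 1.5-fold higher. In the second 9 of 19 decay genes were at least 1.5-fold higher, among them me31B at 1.17, beside 3245 of 7896 genes. Relative to the median of all genes, pcm stayed between -0.51 and -0.46 over the 10 alternatives. In each of them me31B had the highest or second highest ratio of the members. Much of this was fixed in advance, since the median takes up a shift of the whole array. The other floors, the filter on both arrays and the choices of probe set left the ratios of pcm and me31B unchanged. Only quantile and loess scaling and the pseudocount could alter them otherwise, with pcm at -0.50, -0.50 and -0.48. The 3′ and 5′ probe sets of control transcripts, which read RNA integrity, had a 3′ over 5′ signal ratio of 2.20 on the mbf1 array and 2.33 on the yw array for actin, and of 2.88 on the mbf1 array and 2.57 on the yw array for GAPDH. For eIF-4a the ratio was 2.55 on the mbf1 array and 3.09 on the yw array. The mbf1 array had the lower ratio for actin and eIF-4a and the higher one for GAPDH. The 18S rRNA probe sets, with a ratio of 3.83 on the mbf1 array and 7.69 on the yw array, had signals far under the floor on both. The part of RNA integrity in the ratios was not tested.

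**Figure D5:**
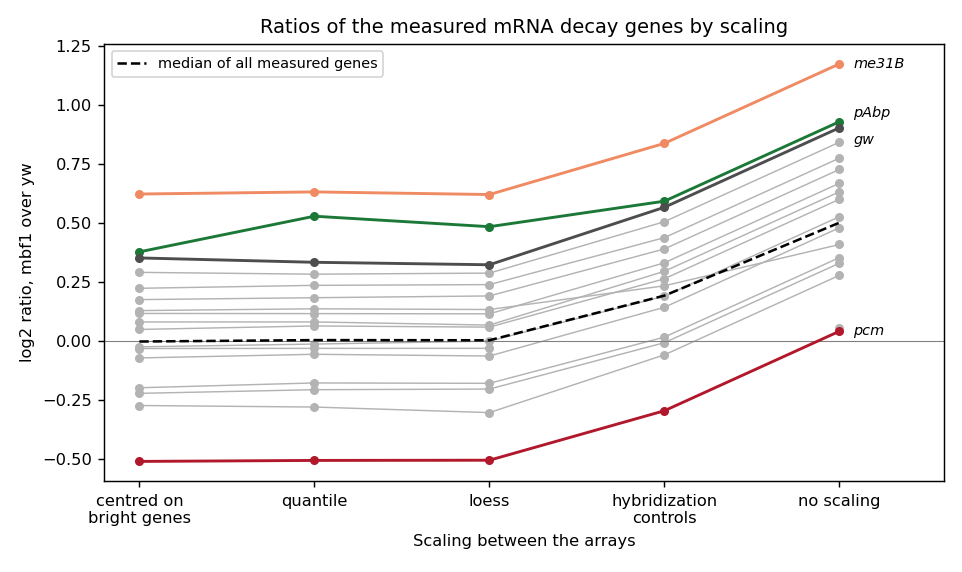
Log2 ratios of the 17 measured mRNA decay genes (lines) under 4 ways of scaling the arrays and without scaling, with the median of all measured genes as a dashed line. Most lines shift together where the whole array shifts, while those of Rat1 and tst, which lie at the floor, shift by less. No value is drawn for tst with scaling on hybridization controls, where it was not measured. The line of pcm runs below the dashed line and that of me31B above it throughout.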

How the data were processed

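Total RNA of mbf1 and yw animals was measured on 1 array each. Each deposited value is a linear intensity of 1 probe set. It was made with MAS5, per the submitters' processing notes, which name no version; detection calls were not used. The table held 0 columns beyond these arrays. Of 14010 probe sets, GEO's platform annotation gave 1 symbol for 12443, several for 327 and none for 1240. A gene was represented by its brightest probe set. Log2 ratios were centred on probe sets brighter than the median of both arrays, then floored at the 40th percentile. With 1 array per genotype there was no test. The members and lists were chosen with earlier results of these data known. All members, mbf1 and E(z) were named; of the other lists, genes at least 1.5-fold apart and the 2 largest ratios in each. Rcd-1, Not10, Not11, eRF1, Gadd45, Oda, piwi, aub and armi, and genes named for a change under another floor, were chosen after their values were seen. Python 3.11.15, numpy 2.4.6, pandas 2.3.3 and statsmodels 0.14.6 were used, and the steps were tested on simulated data. The number of arrays limits the precision. Alternatives were 4 other scalings (including none), floors at the 25th and 60th percentile, a pseudocount, a filter on both arrays, the mean over probe sets, and probe sets without a suffix.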

Additional observations from a re-analysis of the deposited data

How the results depend on the processing

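All 10 alternatives were chosen with earlier results of these data known. Without scaling 9 of 19 decay genes were at least 1.5-fold higher, beside 3245 of 7896 measured genes. Of them 1, me31B, was at least 2-fold higher, and the median ratio of the decay genes was 0.53. With scaling on hybridization controls 2 of 17 were at least 1.5-fold higher, beside 1214 of 7717 genes, and the median was 0.26. With a floor at the 25th percentile 2 of 22 were at least 1.5-fold higher and 1 lower, beside 997 and 940 of 9272 genes. These follow by construction from the shift of the whole array and from dim genes that the lower floor lets in. The other counts and medians stayed within 1.5 times or within 0.1 of the main values. Of 162 ratios of decay genes under alternatives 146 moved by less than the robust SD of genes of similar signal, and 15 of the 16 that moved did so without scaling. Many of the 146 could not move, so their number says little about stability. The filter on both arrays and the probe sets without a suffix changed no ratio, and the mean over probe sets only those of pAbp and gw. Of genes also measured in the main setting, the 25th percentile floor changed only Rat1 and tst, and the 60th only Not3 and Ski6. The ratio of pcm was negative in 9 of 10 and 0.04 without scaling. The other floors, the filter on both arrays and the choices of probe set could not change it. The further pathway genes past 1.5-fold, 0 higher and 4 lower, numbered 1 and 6 of 49 with a pseudocount, beside 711 and 681 of 7688 genes. The 60th percentile as floor gave 0 and 3 of 34, beside 278 and 305 of 5300 genes. Signal over background limits the 5 genes under the floor. No paired analysis was possible because each genotype had 1 array.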
